A study of Homo sapiens with 4 samples.

Results

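The genes described here handle and read retinoic acid: the binding proteins CRABP1 and CRABP2, the receptors RARA, RARB, RARG, RXRA and RXRB, and the enzymes CYP26A1 and DHRS3. They were chosen by symbol, and all 9 were among the 19775 genes of the deposited table. The samples are H1, an established line of human embryonic stem cells of wild-type genotype, sequenced as poly(A) RNA with paired-end Illumina reads. One group received 1 µM XMD892, a compound used to inhibit the MAP kinase ERK5, in E8 medium for 12 h (2 samples), and the other was kept in E8 alone for 12 h (2 samples). No retinoid is named among the components of E8 in the labels, which give DMEM/F12, selenite, ascorbate, transferrin, insulin, FGF2 and TGFβ.

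Only 2 of the 9 value columns matched a sample by treatment, time and replicate number, and both belong to XMD892 at 12 h. The remaining 7 columns were not used, among them a further replicate of the same treatment and time, and untreated columns named for another culture time. The E8 samples were therefore not analysed here, no effect of XMD892 was estimated, and what follows gives transcript levels under the compound and how replicate 2 compared with replicate 1. Replicate 2 held 20217648 recovered reads and replicate 1 held 18528689. Whether these libraries stem from separate cultures is not stated, so their spread may be technical. The gene set was proposed with the wide spread of CYP26A1 between these libraries already known, and that spread is given as a description with no test.

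Retinoic acid is made from vitamin A by oxidation of retinol to retinal and of retinal to the acid. In the cytoplasm CRABP proteins carry it, CYP26 enzymes hydroxylate it for clearance, and in the nucleus it binds a receptor of the RAR family, which sits on DNA as a pair with an RXR receptor. In human and mouse pluripotent cells, added retinoic acid drives exit from pluripotency toward neural and other fates. CYP26A1, RARB and DHRS3 are among the genes it is known to induce.

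In the treated cells the binding proteins were by far the most abundant of the 9 transcripts, the receptors RXRB, RARG, RXRA and RARA stood at a low to moderate level, and DHRS3, CYP26A1 and RARB were lowest. Levels are given as RPKM, here the authors' normalized count scaled by the kilobases of merged exons and by the mean normalized total of both libraries. The median over the 9 genes was 6.13 RPKM, against a median of 2.31 RPKM for all genes that had a length. Of the 9, 6 reached 1 RPKM in both libraries, beside 11481 of the 19283 genes with a length. Between the libraries RARA, RARG, RXRA, RXRB and CRABP2 differed by at most 1.37-fold, CRABP1 was higher in replicate 2, and CYP26A1, DHRS3 and RARB were each lower in replicate 2. Fewer cells that express a gene and less RNA per cell cannot be told apart in bulk RNA.

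**Figure D1:**
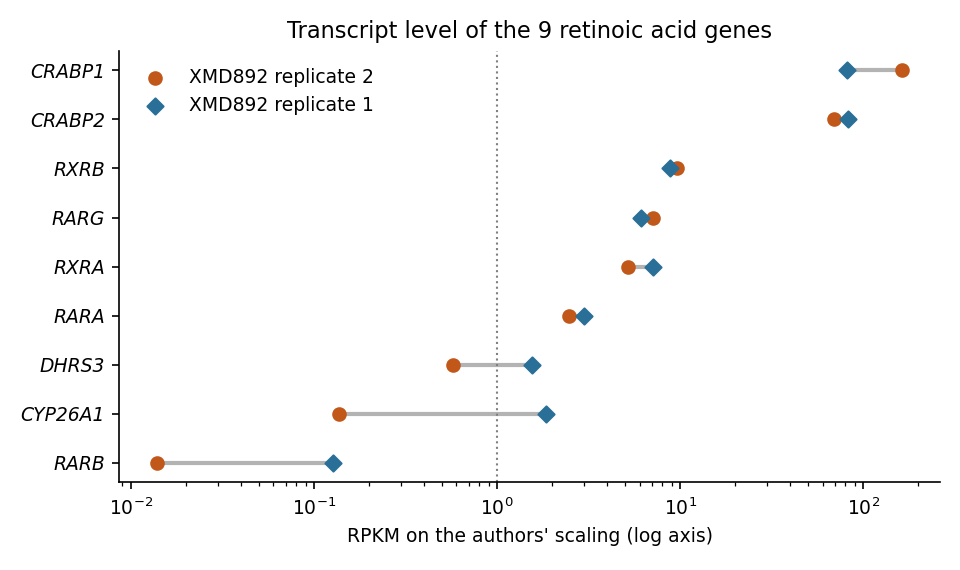
Level of each of the 9 genes in RPKM (log axis) in XMD892 replicate 2 (circles) and replicate 1 (diamonds), joined by a line, with 1 RPKM dotted. The range runs from RARB at 0.0138 and 0.127 RPKM to CRABP1 at 164 and 82.0 RPKM, and the longest line is that of CYP26A1.

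CRABP1, a cytoplasmic protein known for holding retinoic acid and handing it to clearance, had 3176 reads in replicate 2 and 1564 in replicate 1. These correspond to 164 and 82.0 RPKM, with a mean of 123 ± 57.8 (SD, n = 2), above 98.7% of the genes with a length. CRABP1 was thus 2.00-fold higher in replicate 2, and its log2 difference of 1.00 rounds up from a value just under the 2-fold mark used below. CRABP2, which is known for delivering retinoic acid to the nuclear receptors, had 1486 reads in replicate 2 and 1741 in replicate 1. Its level was 69.2 and 82.4 RPKM in the same order, with a mean of 75.8 ± 9.38 (SD, n = 2), above 97.6% of genes. The ranges of CRABP1 and CRABP2 overlapped on merged exon length. With the longest single transcript as the length they did not, since CRABP1 stood at 211 RPKM in replicate 2 and 106 RPKM in replicate 1, and CRABP2 at 73.6 and 87.8 RPKM in the same order. Within replicate 2 the ratio of CRABP1 to CRABP2 per length was 2.37, and within replicate 1 it was 0.995. These ratios, on merged exon length, do not depend on how the libraries were scaled. CRABP1 is annotated at chr15:78340324-78348230, plus strand, and CRABP2 at chr1:156699606-156705816, minus strand (GENCODE release 29, GRCh38, as for all gene positions here). The exons of CRABP1 overlap 469 bases of AC011270.2 on the opposite strand, itself at 2 reads in replicate 2 and 10 in replicate 1.

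Of the retinoic acid receptors, RARG, the gamma form, was the most abundant, with 715 reads (7.14 RPKM) in replicate 2 and 602 reads (6.11 RPKM) in replicate 1. RARA, the alpha form, which most tissues express, had 229 reads (2.48 RPKM) in replicate 2 and 272 reads (2.99 RPKM) in replicate 1. RARB, the beta form, was close to the limit of detection, with 1 read in replicate 2 and 9 reads in replicate 1. Means were 6.63 ± 0.725 RPKM for RARG, 2.74 ± 0.365 for RARA and 0.0703 ± 0.0799 for RARB (SD, n = 2 each), and the ranges of the 3 genes did not overlap. RARG exceeded RARA 2.88-fold per length within replicate 2 and 2.04-fold within replicate 1. RARG is annotated at chr12:53210567-53232980, minus strand. RARA (chr17:40309192-40357643, plus strand) shares 556 exon bases with its antisense gene RARA-AS1, itself at 17 reads in replicate 2 and 11 in replicate 1. RARB (chr3:25174332-25597932, plus strand) shares 28 exon bases with TOP2B on the opposite strand. TOP2B, a DNA topoisomerase, had 5758 reads in replicate 2 and 5054 in replicate 1, and reads in that overlap cannot be told apart unless the counting used strand, which is not given in the sources used here.

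The RXR partners were present at a similar level to RARG. RXRB had 735 reads (9.60 RPKM) in replicate 2 and 664 reads (8.82 RPKM) in replicate 1, and RXRA had 1118 reads (5.16 RPKM) in replicate 2 and 1508 reads (7.09 RPKM) in replicate 1. Means were 9.21 ± 0.550 RPKM for RXRB and 6.13 ± 1.36 RPKM for RXRA (SD, n = 2 each). The range of RXRA overlapped that of RARG, and the range of RXRB lay above both. That order depends on gene length: with the longest single transcript in place of all merged exons, RXRB stood at 12.4 ± 0.741, RXRA at 11.8 ± 2.61 and RARG at 11.5 ± 1.26 RPKM, and the 3 ranges overlapped. RXRG, the remaining RXR gene, was not listed in the table. Summed per length, the listed RXR genes stood 1.53-fold above the RAR genes in replicate 2 and 1.72-fold above them in replicate 1. The summed CRABP level was 24.2 times that of the RAR genes in replicate 2 and 17.8 times in replicate 1. RXRB (chr6:33193588-33200688, minus strand) shares 244 exon bases with SLC39A7, a zinc transporter on the opposite strand with 3261 reads in replicate 2 and 3657 in replicate 1. RXRA is annotated at chr9:134317098-134440585, plus strand.

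CYP26A1, the hydroxylase that clears retinoic acid, had 8 reads in replicate 2, against 105 reads in replicate 1. Its normalized counts were 8.44 in replicate 2 and 113 in replicate 1, and its levels 0.138 and 1.84 RPKM in the same order, with a mean of 0.989 ± 1.20 RPKM (SD, n = 2). The SD exceeded the mean, and CYP26A1 was 13.4-fold higher in replicate 1. On log2(normalized count + 1), a scale that understates the difference of low genes, replicate 2 minus replicate 1 was -3.59. The exact binomial 95% interval of the ratio of the reads ran from -4.99 to -2.71 on the log2 scale, and without molecular identifiers it covers no more than counting error. CYP26A1 (chr10:93073475-93077890, plus strand) shares 750 exon bases with AL358613.3 on the same strand, a gene that was not listed.

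DHRS3, a short-chain reductase that turns retinal back to retinol and so works against synthesis of the acid, had 34 reads (0.573 RPKM) in replicate 2 and 91 reads (1.56 RPKM) in replicate 1. Its mean was 1.07 ± 0.698 RPKM (SD, n = 2), and its range lay inside that of CYP26A1. It was 2.72-fold higher in replicate 1, with a log2 difference of -1.42 and a counting interval from -2.06 to -0.86. DHRS3 is annotated at chr1:12567910-12617731, minus strand. RARB, described above, was lower in replicate 2 as well, at a ratio of 0.109 of replicate 2 over replicate 1, and with 10 reads in all its counting interval ran from -8.65 to -0.34 on the log2 scale.

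**Figure D2:**
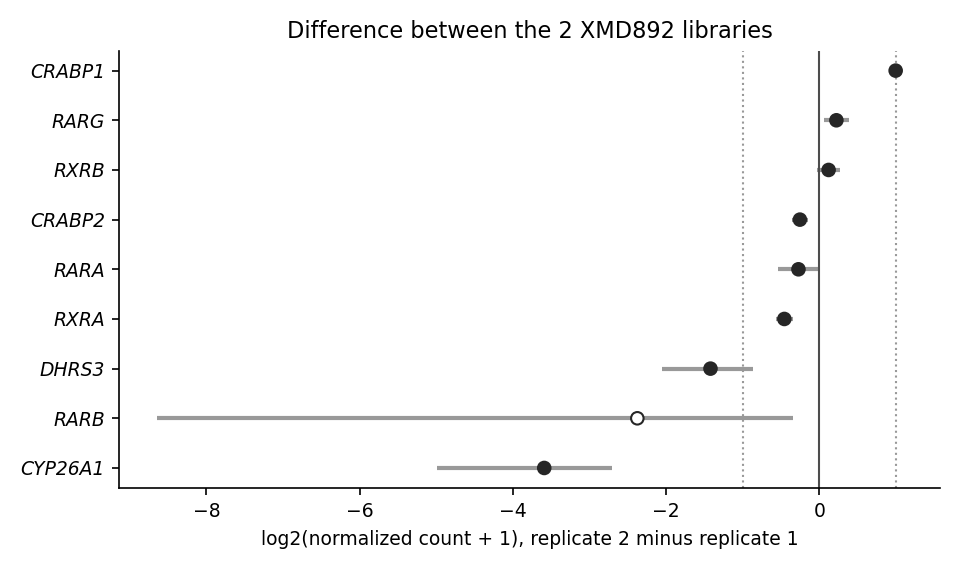
Difference between the XMD892 libraries for each gene, as log2(normalized count + 1) in replicate 2 minus replicate 1 (points), with the exact binomial 95% counting interval of the read ratio (bars, which carry no pseudocount) and 2-fold dotted. CYP26A1 at -3.59 and DHRS3 at -1.42 lie beyond 2-fold toward replicate 1, and the open point is RARB, whose mean normalized count was under 10.

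Retinoic acid receptors are known to act on CYP26A1 and RARB through a repeated half-site near a start of the gene. The promoter windows of the 9 genes that hold such letters are shown for that reason. A match is a description of the sequence and not a measured site. RefSeq promoter windows (GRCh38.p14, 250 bases before to 50 bases after an annotated start) were found for all 9 genes, 19 windows in all. They were searched on both strands for 2 half-sites in the same orientation with 5 bases between them, the spacing called DR5. A half-site was the consensus AGGTCA or a close variant, either AGTTCA, or else GGGTCA, or lastly GGTTCA, and the 2 half-sites of a match could differ. A DR5 match was held by 2 of the 19 windows and by 31 of all 35116 windows (0.0883%). The 2 windows belong to CYP26A1 and RARB, and their matches consist of the variants AGTTCA and GGTTCA, without AGGTCA. Receptor action on both genes was known before the search, so 2 of 19 is no measure of enrichment. Both windows are printed in the direction of the gene, with the DR5 match in capitals. The CYP26A1 window is chr10:93073643-93073942 on the plus strand, where the match lies 90 to 74 bases before that window's annotated start and reads on the opposite strand. The RARB window is chr3:25428013-25428312 on the plus strand, where the match lies 53 to 37 bases before that window's annotated start on the gene's own strand. Neither start is the first base of the gene, since both matches lie inside the gene positions given above. Both genes also had windows without a match.
CYP26A1: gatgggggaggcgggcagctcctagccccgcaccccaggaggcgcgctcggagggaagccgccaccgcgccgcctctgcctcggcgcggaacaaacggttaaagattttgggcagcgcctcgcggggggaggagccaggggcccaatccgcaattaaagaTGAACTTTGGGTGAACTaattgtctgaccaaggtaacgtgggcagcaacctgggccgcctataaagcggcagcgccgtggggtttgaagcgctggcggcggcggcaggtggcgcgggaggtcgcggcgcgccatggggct
RARB: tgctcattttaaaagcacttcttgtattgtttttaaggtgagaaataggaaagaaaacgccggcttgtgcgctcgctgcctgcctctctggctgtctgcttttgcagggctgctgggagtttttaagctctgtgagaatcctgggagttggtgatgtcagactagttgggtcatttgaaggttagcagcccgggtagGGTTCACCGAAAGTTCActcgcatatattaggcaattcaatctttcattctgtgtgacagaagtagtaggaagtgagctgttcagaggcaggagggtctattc
Read along their own strands, the elements are identical at 15 of 17 bases.
CYP26A1 element: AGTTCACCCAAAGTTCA
RARB element: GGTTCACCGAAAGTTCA
With 1 base between the half-sites (46 of all windows, 0.131%) or 2 bases (14 windows, 0.0399%), none of the 19 windows held a match. A window without these letters says nothing of more distant elements. The DR5 search was added with the values of CYP26A1 known. Of the 29 genes with a DR5 window, 11 were listed in the table and 8 had a mean normalized count of at least 10. Of these 8, 1 (CYP26A1) was at least 2-fold higher in replicate 1 and 0 in replicate 2. The shares of all genes with that count were 6.14% and 4.76%. Since the spread of CYP26A1 was known beforehand, the count of 1 is no result about genes with a DR5 window. The other genes of the 8 lay between -0.31 (PHF8) and 0.26 (COL24A1). The median log2 difference of the 8 was -0.04, against 0.02 over all genes. RARB was not among the 8, since its mean count was under the minimum; it was 9.16-fold higher in replicate 1, on 1 read in replicate 2 and 9 in replicate 1.

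The minimum mean normalized count of 10 was passed by 8 of the 9 genes, all but RARB. Of these 8, 2 were at least 2-fold higher in replicate 1 (CYP26A1 and DHRS3) and 0 were at least 2-fold higher in replicate 2. Of the 16148 genes with such a count, 10.9% were at least 2-fold apart, 6.14% toward replicate 1 and 4.76% toward replicate 2. The median log2 difference of the 8 was -0.26, with 3 higher in replicate 2 and 5 in replicate 1, CYP26A1 among these 5. Over the 16148 genes the median was 0.02, with 8409 higher in replicate 2 and 7739 in replicate 1. At 4-fold or more, CYP26A1, the gene whose spread was known when the set was proposed, was the only one of the 8, beside 1.65% of all genes in both directions and 1.0% toward replicate 1. The other 6 genes were between -0.46 (RXRA) and 1.00 (CRABP1), with RARG at 0.22, RXRB at 0.12, CRABP2 at -0.25 and RARA at -0.27. Counting intervals excluded equal levels for 7 of the 8, with RXRB the exception, and for 58.1% of all genes, so this criterion does not set these genes apart.

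**Figure D3:**
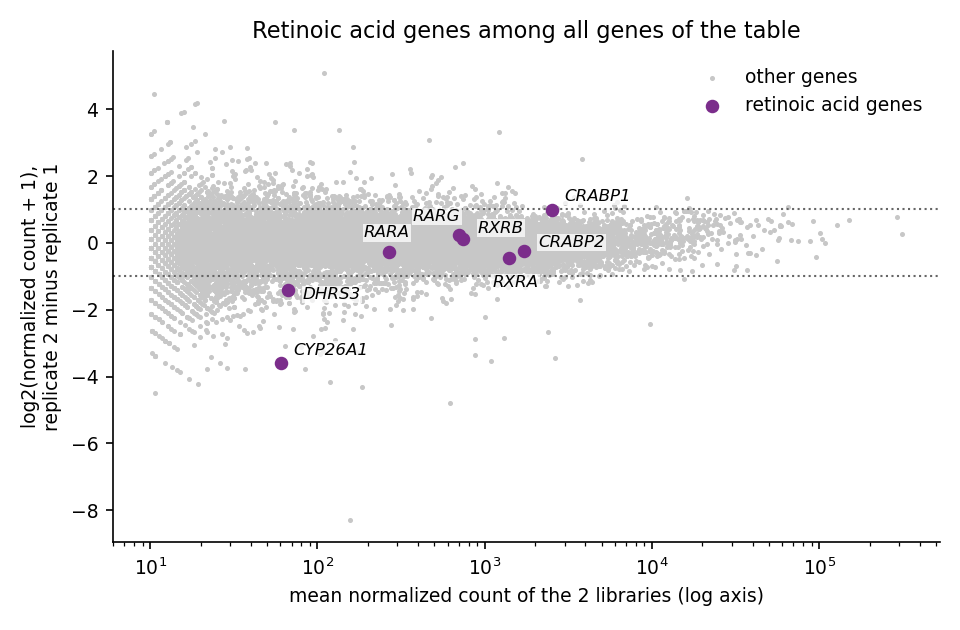
Difference between the XMD892 libraries, as log2(normalized count + 1) in replicate 2 minus replicate 1, against the mean normalized count (log axis) for the 16148 genes with a mean of at least 10 (grey) and for the 8 retinoic acid genes among them (purple), with 2-fold dotted. CYP26A1 lies at -3.59 and DHRS3 at -1.42, both beyond 2-fold toward replicate 1, and the others lie inside 2-fold.

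Genes were also sought with a mean normalized count within 2-fold of that of CYP26A1 (30.3 to 121). Those with the most similar log2 difference, a likeness that rests on 2 libraries only, included PAX7 at -3.76, MYOF at -3.33, C16orf54 at -3.23 and SLFN13 at -3.11. PAX7, a paired-box factor of neural crest and muscle progenitors, had 4 reads in replicate 2 and 65 in replicate 1. MYOF, the membrane protein myoferlin, had 17 and 177 reads in the same order.

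Markers of pluripotent cells were high in both libraries. Of the markers of other cell types, the listed fibroblast genes were lower in replicate 2, as CYP26A1 was. Among the primitive streak and mesoderm markers, only MIXL1 was higher in replicate 2 with a counting interval that excluded equal levels. In both libraries all 9 pluripotency markers stood above 1 RPKM, with a summed level of 2912 RPKM in replicate 2 and 2317 RPKM in replicate 1, among them SOX2 at 102 and 87.0 RPKM. That order of the sums rests on POU5F1, a gene with near-identical pseudogenes that can share its reads, which stood at 1480.0 RPKM in replicate 2 and 708 RPKM in replicate 1, and the sum of the other 8 was 1432 RPKM in replicate 2 and 1609 RPKM in replicate 1. DNMT3B stood at 253 RPKM in replicate 2 and 411 RPKM in replicate 1. Of 6 fibroblast markers 3 were listed and all 3 were lower in replicate 2, with a summed level of 5.12 RPKM in replicate 2 and 13.6 RPKM in replicate 1; COL3A1, DCN and LUM were not listed. COL1A1, a fibrillar collagen, had 196 reads in replicate 2 and 1429 in replicate 1. Of 5 primitive streak and mesoderm markers 4 were listed, with a summed level of 3.55 RPKM in replicate 2 and 1.34 RPKM in replicate 1. MIXL1 had 104 reads (2.62 RPKM) in replicate 2 and 31 reads (0.796 RPKM) in replicate 1. The counting intervals of EOMES, MESP1 and TBX6 each included equal levels. Of 4 neural progenitor markers 3 were listed, at 0.835 and 1.14 RPKM in the same order, and PAX6 was not; the counting interval of each of the 3 included equal levels. The single listed endoderm marker, CXCR4, stood at 0.460 and 0.609 RPKM, with an interval that also included equal levels, and the 2 listed amnion and trophoblast markers at 1.08 RPKM in each library. The part of these differences in the spread of CYP26A1 was not tested.

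The wider retinoid pathway was described through 5 lists of 83 other genes. The table listed 51 of them, and 41 had a mean normalized count of at least 10. At 1 RPKM or more in both libraries were 32, beside 11481 of the 19283 genes with a length. That figure for all genes also stands beside the counts at 1 RPKM of the single lists below. Of the 41 genes 7 were at least 2-fold apart, 1 toward replicate 2 and 6 toward replicate 1, beside 10.9% of all genes in both directions, 4.76% toward replicate 2 and 6.14% toward replicate 1. The median log2 difference was -0.09, beside 0.02 over all genes. In uptake, storage and binding, 9 of 13 genes were listed. FABP5, a fatty acid binding protein that can also carry retinoic acid, was the highest at 63.2 ± 2.82 RPKM and BCO2, a carotenoid-cleaving enzyme, the lowest at 0.0879 ± 0.0710 RPKM (SD, n = 2 each). LRAT, which stores retinol as esters, stood at 34.9 RPKM in replicate 2 and 22.6 RPKM in replicate 1. The retinol transporter STRA6 stood at 1.81 and 2.36 RPKM in the same order. LRAT and STRA6 are named here for their roles, outside the naming rule.

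Synthesis genes were led by ADH5, at 62.0 ± 10.2 RPKM (SD, n = 2), an alcohol dehydrogenase best known for clearing formaldehyde. The table listed 11 of 19 genes, with 7 at 1 RPKM or more in both libraries. RDH10, which makes retinal from retinol in the embryo, stood at 2.79 RPKM in replicate 2 and 3.58 RPKM in replicate 1. Of the retinal dehydrogenases that make the acid, ALDH1A3 and ALDH1A1 were low. ALDH1A3 stood at 1.11 and 1.14 RPKM in the same order, and ALDH1A1 had 29 reads in replicate 2 and 1 read in replicate 1. ALDH1A2 was not listed, so its level is not known. The ratio of ALDH1A1 was 28.5 of replicate 2 over replicate 1, with a counting interval from 2.24 to 10.2 on the log2 scale, and so ran opposite to CYP26A1. SDR16C5, the lowest, had 4 reads in replicate 2 and 0 in replicate 1, where a count of 0 allows up to 3 reads. RDH10 and ALDH1A3 were chosen for their roles after their values were seen.

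The other hydroxylases of the CYP26 family were close to the limit of detection. CYP26B1 had 3 reads in each library, and CYP26C1 had 4 reads in replicate 2 and 3 in replicate 1. CYP2C8, a liver cytochrome that can hydroxylate retinoic acid, had 1 read in replicate 2 and 13 in replicate 1, at a ratio of 0.0756 with a counting interval from -9.13 to -0.99 on the log2 scale. Of the same list PPARD, a nuclear receptor that pairs with RXR, was the highest at 7.48 ± 0.107 RPKM (SD, n = 2). For corepressors and coactivators the table listed all 14 genes, 13 of them at 1 RPKM or more in both libraries. HDAC3, a deacetylase of nuclear receptor corepressor complexes, was the highest at 23.1 ± 0.0364 RPKM (SD, n = 2), and PRAME, a repressor of RAR signalling in tumours, the lowest, at 3 reads in replicate 2 and 1 read in replicate 1. The median log2 difference of the 13 with a mean count of at least 10 was -0.22, beside 0.02 over all genes. The coactivator CREBBP, named after its values were seen, was at a log2 difference of -1.14.

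Genes known to be induced by retinoic acid were mostly not listed. The table held 11 of 29 genes, 4 of them at 1 RPKM or more in both libraries, and 7 passed the minimum count of 10. None of the HOXA and HOXB genes of the list was listed, and neither was CDX1 nor NR2F1; how the table's genes were selected is not given in the sources used here, so these are not values of 0. RARRES2, which encodes the secreted protein chemerin, was the highest at 59.0 ± 18.5 RPKM (SD, n = 2) and MEIS1, a HOX cofactor, the lowest with 2 reads in replicate 2 and 3 in replicate 1. RARRES2 was 1.57-fold higher in replicate 2, the opposite direction to CYP26A1. ZNF503 had 3 reads in replicate 2 and 21 in replicate 1, at a ratio of 0.140 with a counting interval from -5.22 to -1.09 on the log2 scale. The median log2 difference of the 7 genes was -0.02, with 3 higher in replicate 2 and 4 in replicate 1. Over all genes with that count the median was 0.02, with 8409 higher in replicate 2 and 7739 in replicate 1. CYP26A1, DHRS3 and RARB, themselves induced by retinoic acid, are not in that list. The other members and the genes of the other lists were not sorted by whether retinoic acid induces them.

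**Figure D4:**
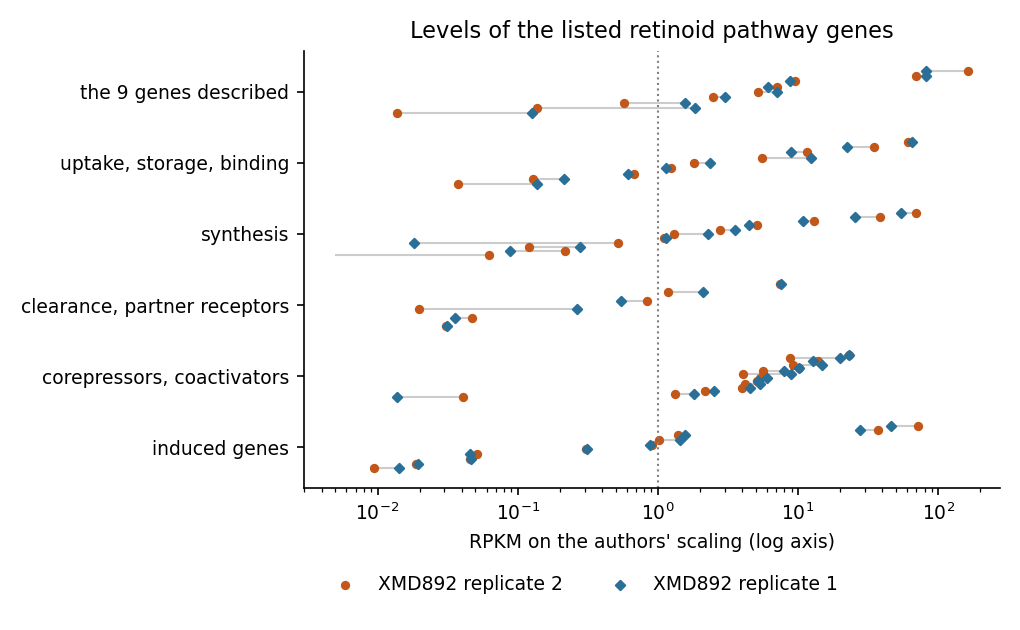
Levels in RPKM (log axis) of the listed genes of each retinoid list in XMD892 replicate 2 (circles) and replicate 1 (diamonds), joined by a line and sorted within a list, with 1 RPKM dotted; a line that runs to the left edge marks 0 reads in replicate 1 (SDR16C5), and ZNF503 has no length. Corepressors and coactivators sit mostly above 1 RPKM, and clearance genes and induced genes mostly below it.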

How the data were processed

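Poly(A) RNA of H1 cells was sequenced in 4 samples, and 1 table was deposited for the series. The deposited signal is a size-factor normalized gene count: within each column 100% of values were whole multiples of 1 step, within 0.01 reads, from which reads were recovered. Trimmomatic 0.36, STAR, featureCounts 1.5.3, DESeq2 1.26.0 and hg38 are named, without roles, per the submitters' processing notes. Annotation and strand setting were not stated.

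Columns were matched to samples by treatment, time and replicate number; 2 of 9 matched and 7 were not used. Replicate 2 held 20217648 recovered reads, against 18528689 for replicate 1. Exon lengths and positions came from GENCODE release 29 (19283 of 19775 symbols had 1 gene ID). Differences are log2(normalized count + 1) for the 16148 genes with a mean of at least 10, and RPKM uses the authors' scaling. The planned test against E8 (limma) was not run, and no p-value is given. Intervals are exact binomial (Clopper-Pearson, 95%). Recovery of reads, differences and intervals was tested on data simulated with counting error alone (Poisson). Spread between libraries beyond counting error was not simulated, so that test does not show how the intervals hold for these libraries. Python 3.11.15, scipy 1.17.1 and pandas 2.3.3 were used.

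The 9 genes and the lists were chosen with earlier results of these data known. The naming rule took all 9 genes, the highest and lowest per length of each list, list genes at least 4-fold apart, and the 5 genes most like CYP26A1; some items that it names are left out of the text.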

Additional observations from a re-analysis of the deposited data

How the results depend on the processing

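The number of retinoic acid genes at least 2-fold apart stayed at 2 of 8 with a pseudocount of 5, with column totals as the scale and with a minimum mean count of 50. It was 3 of 9 with no minimum, where RARB entered. Each of these counts includes CYP26A1, whose spread was known when the set was proposed. Over all genes, 711 (5.64%) were at least 2-fold apart with a minimum of 50, and 3350 (16.9%) with no minimum, against 1761 (10.9%) with a minimum of 10; fewer or more low genes were counted by construction. With column totals as the scale the median log2 difference of all genes was -0.08 in place of 0.02, and the differences of CRABP1 and CRABP2 were 0.90 and -0.35. The median level of the 9 genes was 11.5 RPKM with the longest transcript as the length, in place of 6.13. With that length 7 of the 9 reached 1 RPKM in both libraries, in place of 6. The matching values for all genes were not computed, so 11.5 cannot be set against the all-gene median of 2.31 RPKM, which is on merged exon length. With 1 library left out the median of the 9 genes lay between 5.16 and 6.11 RPKM. Of 71 alternative values of single genes 7 moved beyond their error and 0 reversed, but many of the 71 could not move. A changed minimum leaves the difference of a gene as it was. Leaving out 1 of 2 libraries always shifts a mean by less than its SD. A reversal could be counted only for differences of at least 2-fold, and never for levels. The tally is therefore no measure of robustness. With 8 reads of CYP26A1 and 1 read of RARB in replicate 2, depth limits how well their ratios are known. The 6 alternatives planned for the comparison with E8 were not run. No paired analysis was possible because no column matched the E8 samples, whose labels carry the same replicate numbers 1 and 2 as the XMD892 samples.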
